A study of Rattus norvegicus with 6 samples.

Results

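The interferon-stimulated genes and their regulators were followed here as a set of 46 named genes in rat nucleus pulposus cells, the cells of the gel-like core of the intervertebral disc. The set was drawn up by gene name and by known role, from the interferon receptors to the antiviral effectors. No measured value entered that rule, but the set was chosen with earlier results of these data known. Of the 46 genes, 41 had a row among the 19088 rows of the gene table. The expression of Mx1, Oas1a, Oas1b, Oas2 and Oas3 was not analysed here. Bulk poly(A) RNA-seq had been run on primary cultures from Sprague Dawley rats, grown in DMEM/F12 with 10% fetal bovine serum. The 3 rShh libraries came from cells given recombinant Sonic hedgehog at 200 ng/ml in DMSO for 48 h. The 3 Control libraries came from cells given DMSO alone for 48 h, so the solvent was shared by both groups. Nothing in the labels says whether the 3 samples of a group were separate cultures or animals, or gives the animals' sex or age; each p-value therefore rests on the variation among these 6 libraries alone, and some or all of it may be technical.

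Interferons are secreted proteins, and cells release type I interferon on sensing viral nucleic acid. Type I interferon binds IFNAR1 with IFNAR2 and interferon gamma binds IFNGR1 with IFNGR2; Janus kinases attached to these receptors then phosphorylate STAT proteins. A complex holding STAT2 and IRF9 binds the interferon-stimulated response element (ISRE), while STAT dimers bind the gamma-activated sequence (GAS), and the genes so driven encode sensors, antiviral effectors and brakes on the pathway. Sonic hedgehog signals through other receptors and acts on GLI transcription factors, and it is a product of the notochord, from which the nucleus pulposus derives.

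The interferon genes did not move in 1 direction. In rShh cells the membrane restriction factors Ifitm3, Ifitm2 and Ifitm1, the ISG15 protease Usp18, the transcription factor Irf8 and the RNA sensors Eif2ak2 and Dhx58 rose, while the guanylate-binding proteins Gbp2 and Gbp5, the modifier Isg15 and the transcription factors Stat2 and Irf7 fell. Of the 35 members with enough counts to test, 11 were higher in rShh, 10 were lower and 14 did not pass the threshold, an adjusted p of 0.05 in edgeR's quasi-likelihood test with Benjamini-Hochberg adjustment over 14775 genes. Across all genes tested, 60.3% changed, 31.5% upward and 28.8% downward. The members' shares, 60.0% changed, 31.4% upward and 28.6% downward, lay close to those. At least 2-fold higher were 7 of the 35 members, beside 13% of all genes, and at least 2-fold lower were 3 of the 35, beside 5.71%. The median log2 change of the 35 tested members was 0.12, beside 0.01 for all genes, and the median size of the change regardless of sign was 0.41, beside 0.49. Values of the rShh libraries lay wholly outside the range of the Control libraries for 22 of the 35 members, 11 above and 11 below. Among all genes tested, 68.1% did not overlap. In a bulk sample, fewer cells of a type and less RNA per cell cannot be told apart, and this holds for each level below.

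**Figure D1:**
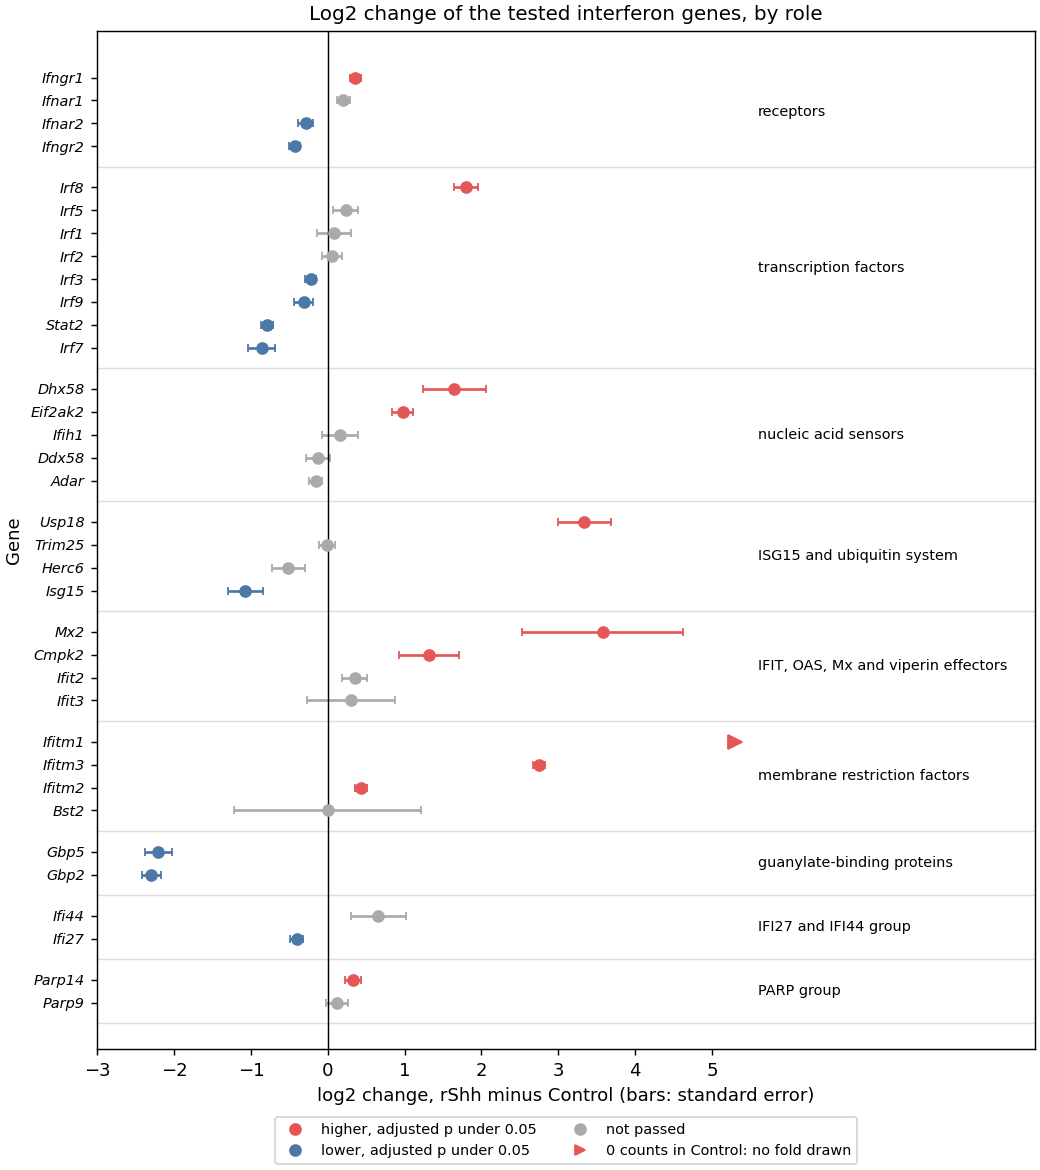
Log2 change of the 35 tested interferon genes (rShh minus Control, x axis), grouped by role on the y axis, with bars for the standard error of the fit. Red points are higher and blue points lower at an adjusted p under 0.05, grey points did not pass; the red triangle is Ifitm1, which had 0 counts in all Control libraries. Each of the membrane restriction factors that passed is higher, and both guanylate-binding proteins are lower.

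The promoters of 5 changed members are shown because these genes carry the rises and falls described below and hold an ISRE match close to the start of transcription. Each line gives the 120 bases just upstream of the start, 5′ to 3′ on the strand of the gene, from RefSeq on build GRCr8. Capitals mark the match to GAAANNGAAA, which reads as its reverse complement in Gbp2 and Gbp5. The windows are chr1:205541759-205541878 on the minus strand for Ifitm3, chr1:205482349-205482468 on the minus strand for Ifitm2, chr6:21941034-21941153 on the plus strand for Eif2ak2, chr2:234005607-234005726 on the plus strand for Gbp2 and chr2:233910879-233910998 on the plus strand for Gbp5.
Ifitm3: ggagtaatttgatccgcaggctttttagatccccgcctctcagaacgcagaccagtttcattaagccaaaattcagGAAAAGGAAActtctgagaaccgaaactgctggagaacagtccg
Ifitm2: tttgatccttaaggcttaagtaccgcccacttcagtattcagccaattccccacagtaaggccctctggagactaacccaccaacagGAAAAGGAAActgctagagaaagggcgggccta
Eif2ak2: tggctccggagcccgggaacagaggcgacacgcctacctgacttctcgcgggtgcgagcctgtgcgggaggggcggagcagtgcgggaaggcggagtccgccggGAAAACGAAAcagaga
Gbp2: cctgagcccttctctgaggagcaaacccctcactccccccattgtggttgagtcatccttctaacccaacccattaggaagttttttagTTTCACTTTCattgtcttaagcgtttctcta
Gbp5: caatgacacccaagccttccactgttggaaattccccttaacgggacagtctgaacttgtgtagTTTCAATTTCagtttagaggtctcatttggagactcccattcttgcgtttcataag
The match began 44 bases upstream of the start in Ifitm3, 33 in Ifitm2, 16 in Eif2ak2, 31 in Gbp2 and 56 in Gbp5. Ifitm3 and Ifitm2 held the same 10 bases, GAAAAGGAAA.

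Promoters, taken as 250 bases before to 50 after the start, were matched by symbol for 34 of the 46 members. GAAANNGAAA, searched on both strands, was present in 18 of the 34 (52.9%) and in 3.92% of all 33469 promoters of the same length. TTCNNNGAA, the GAS letters, which read the same on both strands, were present in 10 members (29.4%) and in 8.87% of all promoters. GGGTGGTC, the core of the GLI site, searched on both strands, was found in the promoter of 1 member, Gbp5 (2.94%), and in 0.878% of all promoters. An ISRE match was held by 4 of the 7 matched members that rose (Ifitm2, Ifitm3, Parp14 and Eif2ak2), by 4 of the 9 that fell (Ifi27, Irf7, Gbp2 and Gbp5) and by 4 of the 10 that did not pass. GAS letters were held by 3 of 7, 2 of 9 and 2 of 10. The remaining members with an ISRE match, Gbp4, Ifi44l, Rsad2, Oas1a, Oas1b and Oas3, were not tested for a change. They are part of the 18 but not of the counts by direction. The changed members Usp18, Dhx58, Ifitm1, Mx2 and Isg15 had no promoter matched by symbol and are missing from all these counts. Members with an ISRE match were found on both sides of the comparison. A match is a run of letters and not a shown binding site.

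The 4 chains of the receptors for type I interferon and interferon gamma were all expressed and changed little. Levels are given as CPM, the counts scaled to library size with edgeR's TMM factors, for replicates 1, 2 and 3 in turn. Ifngr1, the ligand-binding chain of the interferon gamma receptor, measured 34.9, 37.2 and 35.9 CPM in Control and 47.7, 43.5 and 47.4 CPM in rShh, a log2 change of 0.36 (SE 0.07, edgeR adjusted p = 0.00130). Its partner Ifngr2, which brings in the kinase JAK2, measured 48.5, 48.4 and 54.2 CPM in Control and 39.7, 36.9 and 35.4 CPM in rShh, a log2 change of -0.43 (SE 0.08, adjusted p = 0.000728). The groups did not overlap for either chain, so that the chains of 1 receptor moved in opposite directions. Ifnar2, the high-affinity chain of the type I receptor, measured 18.5, 21.1 and 18.5 CPM in Control and 15.4, 16.5 and 15.8 CPM in rShh, a log2 change of -0.29 (SE 0.10, adjusted p = 0.0257). That call was lost on leaving out Control replicate 2 (adjusted p = 0.0920), or rShh replicate 1 (0.0843), or rShh replicate 3 (0.0710). Ifnar1, the other chain, measured 63.4, 51.6 and 54.2 CPM in Control and 67.8, 65.9 and 61.0 CPM in rShh, and with Control replicate 1 inside the rShh range it did not pass (log2 0.20, SE 0.09, adjusted p = 0.0627). Without that library Ifnar1 was higher, with a log2 change of 0.29 and an adjusted p of 0.00443. Summed over the 4 chains, the level was 52.6 FPKM (fragments per kilobase of transcript, scaled to library depth) in Control and 53.4 FPKM in rShh.

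Among the 8 transcription factors, 1 rose, 4 fell and 3 did not pass. Irf8, a factor best known from myeloid cells and an interferon gamma target, measured 3.54, 2.65 and 2.94 CPM in Control and 10.4, 9.68 and 11.6 CPM in rShh. It was 3.48-fold higher (log2 1.80, SE 0.16, edgeR adjusted p = 5.71e-06), and its lowest rShh library lay above the highest Control library. Stat2, which encodes the STAT that joins IRF9 in the ISRE-binding complex, measured 47.5, 45.3 and 49.7 CPM in Control and 26.3, 26.8 and 29.5 CPM in rShh. It was 1.73-fold lower without overlap (log2 -0.79, SE 0.08, adjusted p = 1.22e-05). Irf9, the DNA-binding partner of STAT2 at the ISRE, measured 11.02, 10.2 and 10.5 CPM in Control and 9.43, 8.28 and 7.79 CPM in rShh. The groups did not overlap and the log2 change was -0.32 (SE 0.12, adjusted p = 0.0442). The call for Irf9 was lost without any 1 of the 3 Control libraries or rShh replicates 2 and 3, with adjusted p from 0.0595 to 0.152, and with no filter on low counts (0.0507). Irf7, the factor that amplifies type I interferon output, measured 5.02, 4.84 and 5.56 CPM in Control and 2.76, 2.46 and 3.27 CPM in rShh (log2 -0.86, SE 0.18, adjusted p = 0.00197). Irf3, which the sensors activate first, stood at 55.5 ± 3.28 CPM (SD, n = 3) in Control and 47.5 ± 3.35 CPM in rShh, with a log2 change of -0.22 (adjusted p = 0.0272). The Irf3 call was lost under 4 of 15 alternative fits. They included leaving out Control replicate 2 (adjusted p = 0.0990), rShh replicate 1 (0.121) or rShh replicate 3 (0.0602). Irf1, Irf2 and Irf5, whose groups overlapped, had log2 changes of 0.08, 0.06 and 0.23 with adjusted p of 0.779, 0.745 and 0.229. Irf3, Irf5 and Irf7 overlap the genes Bcl2l12, Tnpo3 and Phrf1 on the opposite strand, and no source used here says whether counting used strand, so the values of these 3 members are uncertain.

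Of the nucleic acid sensors, Eif2ak2 and Dhx58 rose and the other 3 of the 5 tested did not pass. Eif2ak2 encodes PKR, the double-stranded RNA kinase that halts translation; it measured 20.6, 17.4 and 13.6 CPM in Control and 30.8, 34.998 and 35.9 CPM in rShh. The rise of 1.97-fold (log2 0.98, SE 0.14, edgeR adjusted p = 0.000151) separated the groups. Dhx58 encodes LGP2, a helicase that modulates the RIG-I-like receptors; it measured 0.866, 1.04 and 0.375 CPM in Control and 1.64, 2.33 and 3.21 CPM in rShh. It was 3.14-fold higher without overlap (log2 1.65, SE 0.41, adjusted p = 0.0056). The receptors that LGP2 works with gave smaller values: Ifih1, encoding MDA5, had a log2 change of 0.16 (adjusted p = 0.571) and Ddx58, encoding RIG-I, one of -0.13 (adjusted p = 0.506). Adar, the RNA-editing enzyme that masks self RNA, had a log2 change of -0.16 (adjusted p = 0.130). Zbp1, a sensor of Z-form nucleic acid, had 5 counts in 1 Control library and 0 in the other libraries and was not tested.

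The gene for ISG15 and the gene for the enzyme that removes it changed in opposite directions. Usp18, the protease that takes ISG15 off its targets and also damps signalling at IFNAR2, measured 0.866, 0.335 and 0.394 CPM in Control and 4.33, 5.80 and 6.17 CPM in rShh. It was 10.2-fold higher, from 0.532 ± 0.291 to 5.43 ± 0.976 CPM (SD, n = 3; log2 3.34, SE 0.34, edgeR adjusted p = 1.79e-05), and the groups lay well apart. Isg15, the ubiquitin-like modifier, measured 3.62, 3.48 and 3.11 CPM in Control and 1.32, 1.91 and 1.62 CPM in rShh. It was 2.11-fold lower without overlap (log2 -1.07, SE 0.23, adjusted p = 0.00206). Herc6, an E3 ligase that attaches ISG15 in rodents, measured 3.29 ± 0.563 CPM (SD, n = 3) in Control and 2.31 ± 0.321 CPM in rShh; the groups did not overlap, but the adjusted p was 0.0658. Trim25, the ubiquitin ligase that acts on RIG-I, had a log2 change of -0.01 (adjusted p = 0.939).

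**Figure D2:**
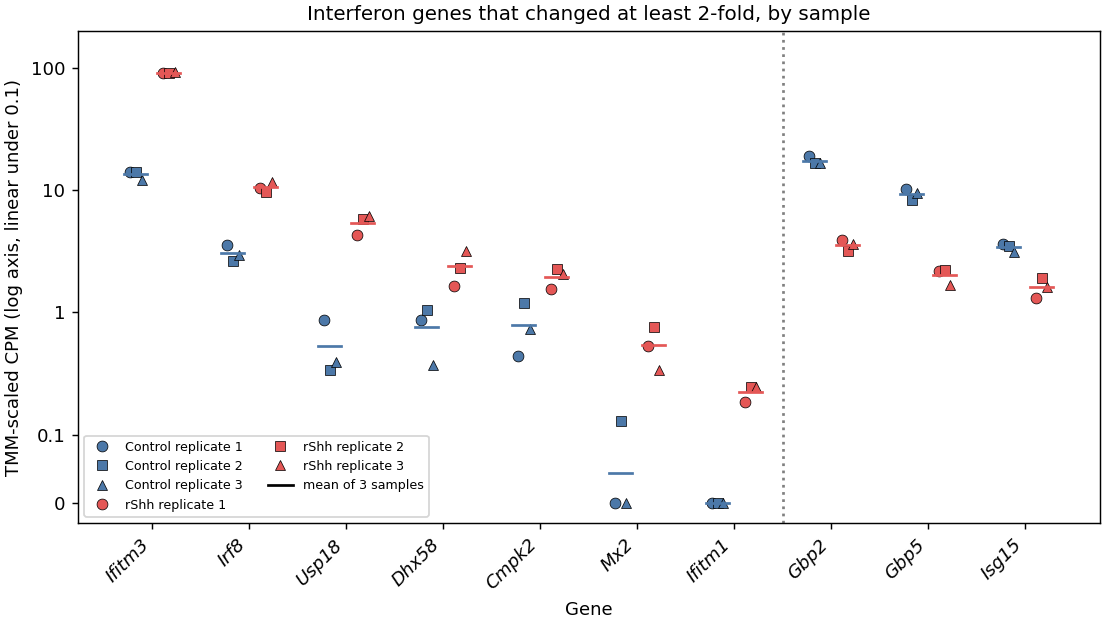
TMM-scaled CPM (y axis, log scale that turns linear under 0.1) in each of the 6 libraries for the 10 interferon genes that changed at least 2-fold, with 1 symbol per replicate and a bar at the mean of 3 samples. Left of the dotted line the rShh libraries (red) lie above the Control libraries (blue) for 7 genes; right of it they lie below for Gbp2, Gbp5 and Isg15.

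The membrane restriction factors gave the largest gain in summed level of the 9 role groups, from 104 ± 10.2 FPKM (SD, n = 3) in Control to 229 ± 9.65 FPKM in rShh. IFITM proteins sit in cell membranes and hinder the fusion of enveloped viruses. Ifitm3, whose promoter is the first shown above, measured 14.2, 14.01 and 12.2 CPM in Control and 90.6, 90.2 and 92.1 CPM in rShh. The rise was 6.75-fold (log2 2.75, SE 0.08, edgeR adjusted p = 2.78e-09), and the 3 libraries of each group lay close together. On the per-length scale Ifitm3 went from 16.1 ± 1.38 to 109 ± 2.20 FPKM (SD, n = 3), which moved it from rank 5 to rank 3 among the 41 members. Ifitm2 measured 76.9, 63.1 and 68.5 CPM in Control and 88.6, 96.8 and 96.2 CPM in rShh. That was 1.35-fold higher without overlap (log2 0.43, SE 0.08, adjusted p = 0.000824). Ifitm1 had 0 counts in the 3 Control libraries and 12, 17 and 16 counts in rShh, a mean of 0.225 CPM. With the floor set at 3 counts per library, Ifitm1 was at least 4.01-fold higher (adjusted p = 0.00241). The 3 Ifitm genes are similar in sequence, so the deposited counts may split reads between them. Bst2, which encodes tetherin, had 12, 0 and 15 counts in Control and 14, 20 and 0 in rShh, and its groups overlapped (adjusted p = 1).

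The guanylate-binding proteins, large GTPases that attack pathogen-holding vacuoles and that interferon gamma induces strongly, fell. Gbp2 measured 18.9, 16.8 and 16.7 CPM in Control and 3.91, 3.18 and 3.60 CPM in rShh. It was 4.91-fold lower (log2 -2.30, SE 0.13, edgeR adjusted p = 2.40e-07). Gbp5, which also promotes inflammasome assembly, measured 10.3, 8.33 and 9.56 CPM in Control and 2.20, 2.23 and 1.68 CPM in rShh. It was 4.61-fold lower (log2 -2.20, SE 0.17, adjusted p = 2.56e-06). Neither gene's groups overlapped. Gbp4 had 16 counts in rShh replicate 3 and 0 in the other 5 libraries and was not tested. Summed over the 3 genes, the level fell from 8.42 ± 0.730 to 1.78 ± 0.0936 FPKM (SD, n = 3).

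The IFIT, OAS, Mx and viperin effectors were near the limit of counting in most cases. Mx2, a dynamin-like GTPase with antiviral action, had 0, 7 and 0 counts in Control and 34, 53 and 22 counts in rShh, or 0.336 to 0.761 CPM in rShh. Its fitted log2 change of 3.58 (SE 1.05, edgeR adjusted p = 0.0123) rests on the 7 counts of Control replicate 2; without that library Control is at 0 and the fitted value, which then depends on the prior count, was 8.06. It did not pass without rShh replicate 2 (adjusted p = 0.0566). Cmpk2, a mitochondrial nucleotide kinase that lies beside the viperin gene, measured 0.442, 1.19 and 0.729 CPM in Control and 1.57, 2.28 and 2.05 CPM in rShh. It was 2.49-fold higher without overlap (log2 1.32, SE 0.39, adjusted p = 0.0141), and the call was lost without rShh replicate 2 (0.0614). Ifit2, an RNA-binding protein that blocks viral translation, was the most abundant of the group on the CPM scale, at 28.3, 17.6 and 18.7 CPM in Control and 27.2, 27.5 and 27.6 CPM in rShh. With Control replicate 1 above the rShh libraries, Ifit2 did not pass (log2 0.35, adjusted p = 0.0788), and without that library it was higher (log2 0.59, adjusted p = 0.000214). Ifit3, a partner of the IFIT complexes, had 9 to 20 counts in Control and 16 to 29 in rShh (log2 0.30, adjusted p = 0.668). Not tested for lack of counts were Ifit1, with 0 in Control and at most 4 in rShh, Rsad2, which encodes viperin, with 0 in Control and 7, 0 and 18 in rShh, and Oasl, with 3, 0 and 4 in Control and 3, 0 and 29 in rShh.

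Ifi27, a small mitochondrial protein used as a marker of type I interferon exposure, had the highest level per length of the 41 members in both groups, at 212 ± 25.3 FPKM (SD, n = 3) in Control and 161 ± 5.41 FPKM in rShh. By library it measured 194, 183 and 230 CPM in Control and 156, 146 and 157 CPM in rShh, a log2 change of -0.41 (SE 0.08, edgeR adjusted p = 0.00168) without overlap. Ifi44, an induced protein of little-known function, measured 2.40, 0.801 and 1.87 CPM in Control and 2.76, 2.31 and 2.96 CPM in rShh and did not pass (log2 0.66, adjusted p = 0.134). Without Control replicate 1 it did pass, with an adjusted p of 0.0335. Its neighbour Ifi44l had 6 counts in rShh replicate 3 and 0 in the other 5 libraries and was not tested. Parp14, an ADP-ribosyltransferase, measured 14.9, 13.2 and 12.2 CPM in Control and 16.5, 17.2 and 17.2 CPM in rShh. Its log2 change was 0.33 (SE 0.11, adjusted p = 0.0188), and the call was lost under 6 of 15 alternative fits. Among these were leaving out Control replicate 2 (adjusted p = 0.0516), rShh replicate 2 (0.0604) or rShh replicate 3 (0.0596). Parp9, its partner, had a log2 change of 0.12 (adjusted p = 0.492).

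Levels within the set spanned from 0 to over 100 FPKM. In Control, 7 members were at 10 FPKM or more, 17 between 1 and 10 and 17 under 1. In rShh the numbers were 7, 18 and 16. Ifi27, Ifitm2, Ifitm3, Irf3, Ifngr1, Ifngr2 and Ifnar1 took the first 7 ranks in both groups. Stat2 went from rank 8 in Control to rank 13 in rShh and Gbp2 from rank 12 to rank 23, while Usp18 went from rank 29 to rank 18 and Irf8 from rank 25 to rank 15. Summed over the 41 members, the level was 438.7 to 490.7 FPKM in the Control libraries and 522.8 to 549.0 FPKM in the rShh libraries. Without Ifi27, Ifitm2 and Ifitm3, the other 38 members summed to 150.4 to 157.2 FPKM in Control and 143.5 to 149.6 FPKM in rShh. Of these 3 genes, Ifitm3 rose from 16.1 to 109 FPKM and Ifitm2 from 87.7 to 119 FPKM. Ifi27 fell from 212 to 161 FPKM, against the rise of the sum.

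**Figure D3:**
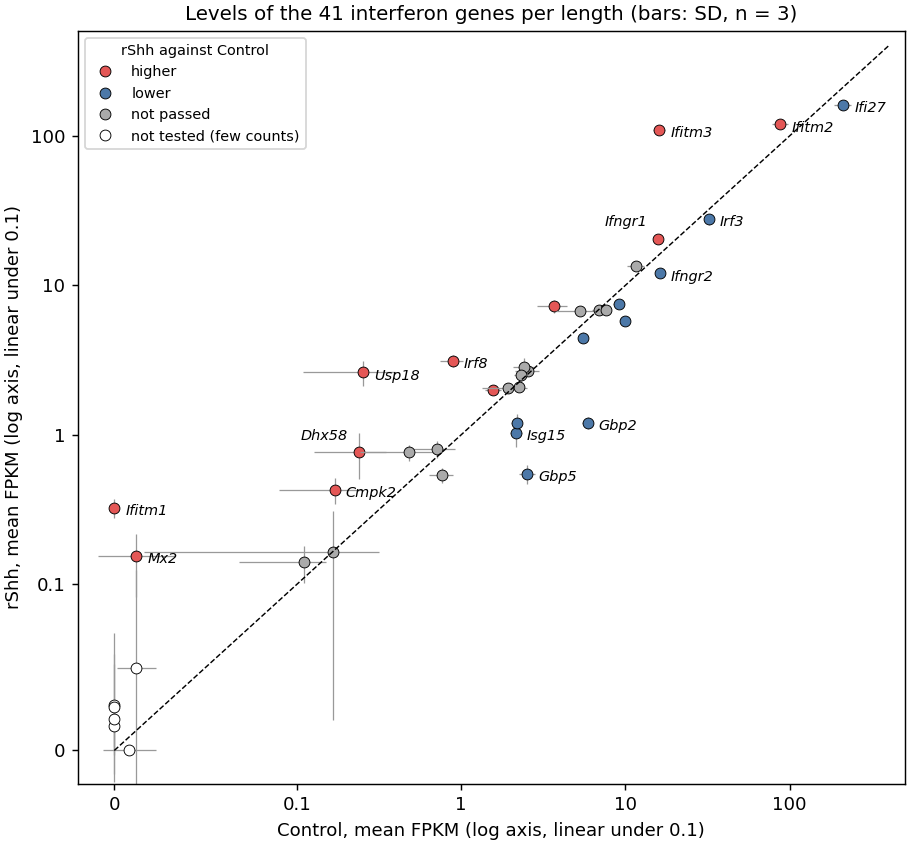
Mean FPKM of the 41 interferon genes in Control (x axis) and rShh (y axis), both on log axes that turn linear under 0.1, with bars for the SD of 3 samples and a dashed line of equal level. Ifitm3 lies far above the line at 16.1 and 109 FPKM, Gbp2 and Gbp5 lie below it, and Ifi27 is the highest point in both groups.

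Several members lie side by side in the genome, in 7 groups of neighbours within 1 Mb that take in 19 genes. The coordinates are those of the deposited table, whose build no source used here gives. On chromosome 1, Ifitm2 (213750192 to 213751405), Ifitm1 (213766758 to 213767815) and Ifitm3 (213810696 to 213811901) rose, while Irf7 (214248837 to 214252456) fell; this was the 1 group with members of both directions. On chromosome 2, Gbp5 (248178389 to 248197160) and Gbp2 (248276709 to 248293784) fell on either side of Gbp4. On chromosome 11, Ifnar2 (31539016 to 31558851) and Ifngr2 (31694339 to 31712611) fell, and Ifnar1 (31640407 to 31664061), which lies between them, did not pass. Usp18 lies apart, on chromosome 4 (153805993 to 153834430), as does Irf8, on chromosome 19 (54314865 to 54336640).

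The transcript table held 46 transcripts of the 41 members, 1 for each of 36 genes and 2 for each of 5. Of the 40 tested, 11 were higher in rShh, 8 were lower and 21 did not pass, beside 23.8% higher and 21.3% lower among all 18180 transcripts tested. Both transcripts of Eif2ak2 rose, with log2 changes of 0.95 (edgeR adjusted p = 0.00386) and 1.40 (adjusted p = 0.0156). Neither transcript of Stat2 passed: 1 had 1369, 838 and 1944 counts in Control and 1396, 1451 and 844 in rShh (adjusted p = 0.305), and the other 1318, 1592 and 578 in Control and 297, 411 and 1088 in rShh (adjusted p = 0.129). Control replicate 3 and rShh replicate 3 thus differed from their groups in how the Stat2 counts were divided, while the gene's sum was steady. Single transcripts of Irf9 and Mx2 missed the threshold that their genes passed (adjusted p = 0.0802 and 0.0687).

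A wider list of 129 other interferon pathway genes, 98 with a row and 84 tested, gave 40 higher and 14 lower; the other 30 missed the threshold, and the median log2 change was 0.49. That is 47.6% higher and 16.7% lower, beside 31.5% and 28.8% of all genes. This list, too, was chosen with earlier results of these data known. The interferons themselves could hardly be read: 1 ligand of 12, Ifne, was analysed here, with at most 6 counts in any library. Of 13 receptor kinases, STATs and brakes, 7 rose and 2 fell. Stat3, the main STAT of interleukin-6 signalling, and Pias1, an inhibitor of STAT signalling, had log2 changes of 0.81 (edgeR adjusted p = 1.11e-06) and 1.13 (adjusted p = 0.000106). The kinase Jak2, which serves the interferon gamma receptor, measured 54.9, 48.1 and 41.5 CPM in Control and 74.8, 77.6 and 75.8 CPM in rShh (log2 0.66, adjusted p = 0.000158). Jak1, which serves both receptors, had a log2 change of -0.25 (adjusted p = 0.0195) that was lost without any 1 of the rShh libraries (0.0548 to 0.0654), and Tyk2, which serves the type I receptor, had one of -0.05 (adjusted p = 0.676).

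Of 11 sensing adaptors and kinases, 7 rose and 4 did not pass. Tlr3, the endosomal receptor for double-stranded RNA, had 0 to 0.130 CPM in Control and 17.8, 16.2 and 18.3 CPM in rShh (edgeR adjusted p = 3.54e-08); its Control level is too close to the floor for a stable fold. Traf3 and Myd88, adaptors of the Toll-like receptors, had log2 changes of 0.55 (adjusted p = 4.72e-05) and 0.74 (adjusted p = 5.42e-05). Of 36 other induced antiviral genes, 13 rose and 6 fell. Slfn2 and Slfn13, members of the Schlafen family, had log2 changes of 1.87 (adjusted p = 3.29e-07) and 2.02 (adjusted p = 2.28e-06), while Ifi27l2b, a relative of Ifi27, had one of -1.18 (adjusted p = 1.95e-07). The monocyte chemokine Ccl2 measured 76.2, 79.8 and 65.2 CPM in Control and 370, 418 and 404 CPM in rShh, a log2 change of 2.43 (adjusted p = 9.29e-09), and Ccl7 had one of 1.02 (adjusted p = 1.27e-06). Cxcl10, the chemokine most tied to interferon, had 0 to 0.513 CPM in Control and 0.259 to 1.01 CPM in rShh and did not pass (adjusted p = 0.159); without Control replicate 1 its adjusted p was 0.0383. Of 21 antigen presentation genes, 11 rose and 6 fell. B2m, the light chain of MHC class I, measured 309, 273 and 270 CPM in Control and 658, 609 and 630 CPM in rShh (log2 1.16, adjusted p = 1.85e-07). Ciita, the activator of MHC class II, was at 0 counts in Control and 3.41 ± 0.330 CPM (SD, n = 3) in rShh, at least 60.9-fold higher against 3 counts per library. The class I gene RT1-CE10 had a log2 change of -1.29 (adjusted p = 5.32e-06), and RT1 genes are similar enough that reads may be split between them.

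**Figure D4:**
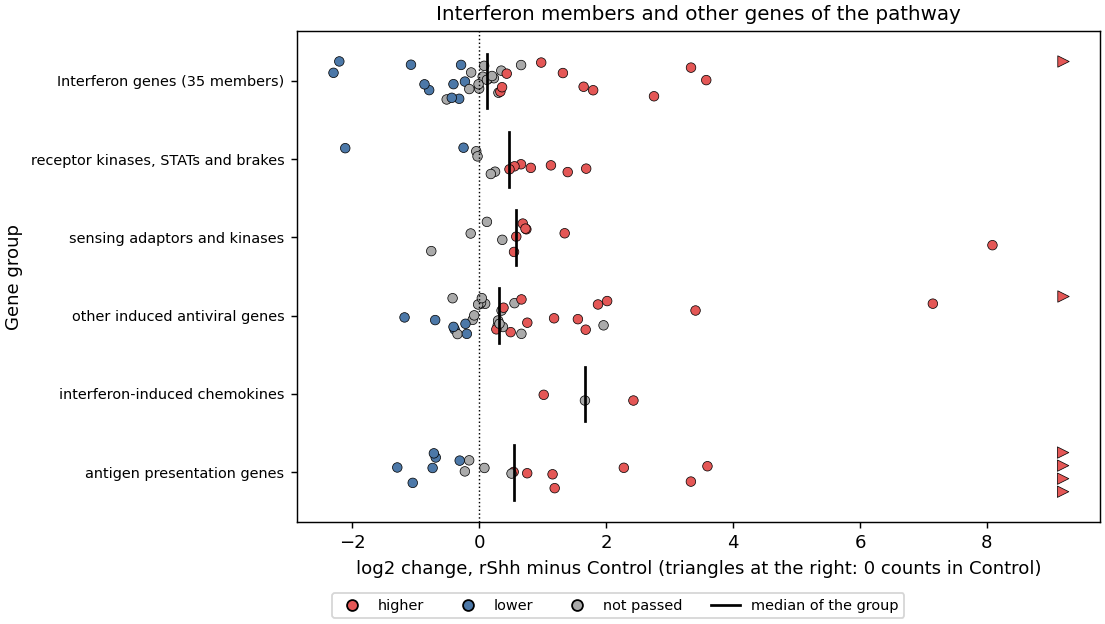
Log2 change (rShh minus Control, x axis) of the 35 tested interferon genes and of the 84 other pathway genes in 5 groups (y axis), with 1 point per gene, red for higher, blue for lower and grey for not passed, and a bar at the median of each group. Triangles at the right edge stand for genes with 0 counts in all Control libraries, drawn at no fold. The members' median is 0.12 and points lie on both sides of 0 in each group other than the 3 chemokines.

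Several features of the libraries differed between the groups, and their part in the interferon results was not tested. Total counts were 50758195 to 55501124 in Control and 65116846 to 70031072 in rShh, so that 3 counts, the floor used here, equal 0.0531 to 0.0591 CPM in Control and 0.0431 to 0.0465 CPM in rShh. Mitochondrial genes took 1.97% to 2.28% of counts in Control and 3.25% to 3.36% in rShh. Of 9 Y-chromosome genes tested, 6 had 0 counts in all Control libraries and summed to 13523 to 14604 counts in each rShh library. A difference in the source of the cells, such as the animals' sex, and the treatment therefore cannot be told apart for any gene here. The labelled cell type was checked against 10 nucleus pulposus and notochord markers with a row. Of 9 tested, 3 were higher in rShh and 5 lower. Acan (56.5 to 586 CPM), Hif1a (78.6 to 253 CPM) and Sox9 (2.34 to 4.67 CPM) rose. Krt8 (12.6 to 2.11 CPM), Cd24 (51.2 to 15.4 CPM) and Pax1 (89.8 to 68.5 CPM) fell. So did Foxa2 (2.09 to 0.588 CPM) and Col2a1 (1.61 to 0.107 CPM). Foxf1 did not pass and Krt18 was near 0 in both groups. Krt19, Tbxt and Shh were on the marker list but were not analysed here. Macrophage markers, of interest beside Irf8, had 6 of 15 genes with a row, the 4 tested did not pass (edgeR adjusted p = 0.128 to 0.876), and their sum was 11.3 to 14.2 CPM in Control and 13.4 to 15.6 CPM in rShh, nearly all from Cd14; Csf1r, Itgam and Spi1 were under 0.3 CPM in each library. The 3 lymphocyte markers with a row summed to 0.159 to 0.749 CPM in Control and 0.603 to 1.65 CPM in rShh. Gzmb rose, with 0, 4 and 0 counts in Control and 40, 21 and 98 in rShh (edgeR adjusted p = 0.00281). Cd8a did not pass, and Cd3e had 7 counts in 1 Control library and 0 in the others. Of 2 plasmacytoid dendritic markers with a row, Tcf4 rose and Il3ra fell. The 8 pericyte and smooth muscle markers, 6 of them higher and 1 lower, summed to 3712 to 5540 CPM in Control and 6422 to 6841 CPM in rShh. The 4 endothelial markers with a row summed to 4.94 to 7.09 CPM in Control and 2.63 to 2.74 CPM in rShh. Tek fell from 5.71 to 1.76 CPM, Erg rose from 0.134 to 0.633 CPM, Vwf did not pass and Cldn5 had 1 count in all. The 6 neural and glial markers with a row summed to 573 to 613 CPM in Control and 356 to 369 CPM in rShh. Of 5 tested, S100b (204 to 63.9 CPM) and Tubb3 (155 to 19.3 CPM) fell and Ncam1 (234 to 278 CPM) rose. The 4 skeletal muscle markers with a row, 1 of 3 tested higher, summed to 57.8 to 93.7 CPM and 81.0 to 102 CPM. Of the 9 fibroblast markers with a row, 7 rose and 1 fell. Their sum was 50966 to 55041 CPM in Control and 50065 to 51005 CPM in rShh. Col1a1 fell from 35166 to 16390 CPM, and Fn1 was among those that rose, from 11742 to 26194 CPM. The 4 epithelial markers with a row summed to at most 0.301 CPM. The 1 erythroid and platelet marker with a row, Alas2, was not tested. It had 0 counts in the 3 Control libraries and 18, 11 and 16 counts in rShh. Several of these lists named further genes that were not analysed here, among them Pecam1, Cdh5 and Kdr of the endothelial list.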

How the data were processed

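RNA-seq of 3 Control and 3 rShh samples was taken from the authors' gene and transcript tables. Per the file headers, these hold a raw count and an FPKM per sample; the counts were used for tests and the deposited FPKM for levels between genes. The tools named in the submitters' processing notes are HISAT2 2.0.4, StringTie 1.3.4d, cutadapt 1.9, edgeR and DESeq2; for their roles and settings, the build and the use of strand: not given in the sources used here. Per the labels' protocols, libraries were made from poly(A) RNA by the dUTP method and read from both ends.

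Counts were fitted over all genes with edgeR 4.0.16 in R 4.3.3 (TMM scaling, filterByExpr with a minimum count of 10, quasi-likelihood test, Benjamini-Hochberg adjustment, threshold 0.05), and transcripts likewise. Alternatives were DESeq2 1.42.0, limma 3.58.1 on log2(FPKM + 1), with a minimum of 1 FPKM, other scalings, no filter, the replicate number as a block, and leaving out each library. The tests were also run on simulated data with known changes in a small share of genes. Most genes changed here, so that run does not give the error rate of the tests on these data. A fold is the ratio of mean CPM, an SE that of the log2 change; a gene with 0 counts in a group was set against 3 counts per library. An exact permutation test of 3 against 3 samples cannot go below p = 0.1. Replicates of a group differed by more than counting noise (chi-square per degree of freedom 10.5 to 50.5), and none was merged. The floor of 3 counts covers counting error only.

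The members and lists were chosen with earlier results of these data known, and no set test was made. Values in each sample are given for members that passed with a log2 change of at least 1 in size, the receptor chains, Stat2, Irf9 and the 3 members highest in FPKM, and for others chosen after their values were seen. From the wider list, Jak1, Jak2, Tyk2 and up to 3 genes with the smallest p in each group are named; 1 gene that this rule would name is not reported here.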

Additional observations from a re-analysis of the deposited data

How the results depend on the processing

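Of the 21 members that changed, 15 (8 higher, 7 lower) kept their call under every one of the 15 alternatives that tested them, and none reversed; Cmpk2, Mx2, Ifnar2, Irf3, Irf9 and Parp14 lost theirs under at least 1. Members higher numbered 6 instead of 11 in limma on log2(FPKM + 1), and 6 with a pseudocount of 0.1, since Ifitm1, Mx2, Cmpk2 and Dhx58 lay under the minimum of 1 FPKM and Parp14 did not pass (adjusted p = 0.0702). Leaving out 1 library gave 8 to 14 members higher (8 without rShh replicate 2) and 7 to 9 lower, 35 to 41 other pathway genes higher and 10 to 14 lower, and 7 to 13 transcripts higher and 5 to 8 lower. Same-numbered replicates did not deviate together (correlations -0.083, -0.007 and -0.00075), so the numbers were not taken as pairs. With the replicate number as a block, 12 members were higher and 9 lower, 7 transcripts were higher and 7 lower, Irf9 was lost (adjusted p = 0.0599) and Ifit2 gained (0.0491). Transcripts higher numbered 6 in limma. Members that reversed had not passed the threshold. Under quantile scaling, which moved the median of all genes from 0.01 to -0.11, the log2 changes were -0.12 for Ifit3, -0.041 for Ifih1, -0.084 for Irf1, -0.070 for Irf2 and -0.026 for Parp9; Irf2 was at -0.011 under upper-quartile scaling. Trim25 was at 0.0013 in limma on FPKM and at 0.0018 with the pseudocount of 0.1. Leaving out 1 library, the log2 change ranged from -0.10 to 0.34 for Irf1, -0.023 to 0.18 for Irf2, -0.63 to 0.64 for Bst2, -0.072 to 0.057 for Trim25, -0.012 to 0.22 for Parp9 and, of the pathway list, -0.11 to 0.025 for Tyk2. The cause of these shifts was not tested. At this depth 6 of the 41 members had too few counts to be tested. Summing repeated rows was not run, since 0 listed symbols were repeated, and protein identity within families was not run.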
